A study of Mus musculus with 4 samples.

Results

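The mir-26 family of the mouse consists of 3 hairpins, Mir26a-1, Mir26a-2 and Mir26b, out of 2202 annotated miRNA hairpins (GENCODE vM21). Its reads were taken from small RNA libraries of fetal liver of 2 genotypes: Ago2 CD, a catalytic dead mutant of the Argonaute protein Ago2, with 2 libraries, and wildtype, with 2 libraries. Members were found by matching reads without mismatch to the 3 hairpins, with a second class for reads that matched after removal of 1 to 3 bases from the 3′ end (tailed reads). These rules gave 429374 and 356655 family reads in Ago2 CD replicates 1 and 2, and 207907 and 159598 in wildtype replicates 1 and 2. None of the untailed reads matched a hairpin outside the family. The libraries held 21875540 and 15238066 reads in all in Ago2 CD, and 15841697 and 13138065 in wildtype. The labels call the libraries of a genotype replicates and give no age, strain, sex or number of animals per library. Of the mouse Argonautes, Ago2 is the one known for slicing its targets, and in the catalytic dead form this slicing is lost. The labels do not say whether the mutation is in every cell of the animal.

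A miRNA hairpin is cut by Drosha and then by Dicer into a duplex, of which Argonaute keeps 1 strand, the guide, while the other, the passenger, is lost. The guide pairs with messenger RNAs through its seed, bases 2 to 8. In vertebrates the mir-26 hairpins lie in introns of the CTD small phosphatase genes and share their host's strand, miR-26 acts on Ezh2, the methyltransferase of the Polycomb repressive complex, and its 3′ end is a known substrate of the terminal uridylyltransferases. Maturation of miR-451a, the abundant miRNA of red cell precursors, needs the cutting activity of Ago2 and bypasses Dicer. The mir-26 hairpins are made through Dicer.

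All 3 members lay in introns, on the plus strand, as their hosts did (build GRCm38). Mir26a-1 was at chr9:119031796-119031885, in intron 5 of 7 of Ctdspl. Mir26a-2 was at chr10:126995530-126995613, in intron 5 of 7 of Ctdsp2. Mir26b was at chr1:74394310-74394394, in intron 4 of 6 of Ctdsp1. The hairpins are shown because the arms alone separate the members. Capitals mark the mature 5p and 3p arms (RefSeq, GRCm38.p6), and all 3 RefSeq hairpins were identical to those of GENCODE.
Mir26a-1: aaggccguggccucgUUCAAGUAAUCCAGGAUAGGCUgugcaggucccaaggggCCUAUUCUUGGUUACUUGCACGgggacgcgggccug
Mir26a-2: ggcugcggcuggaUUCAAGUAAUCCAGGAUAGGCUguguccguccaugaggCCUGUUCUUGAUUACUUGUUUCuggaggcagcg
Mir26b: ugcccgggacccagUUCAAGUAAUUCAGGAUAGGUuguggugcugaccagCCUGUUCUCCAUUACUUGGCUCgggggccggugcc

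The 5p arms of the family share 1 seed, given in capitals here.
miR-26a-5p: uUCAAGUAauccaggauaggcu
miR-26b-5p: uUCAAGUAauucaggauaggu
miR-26a-1-3p: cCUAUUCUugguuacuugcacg
miR-26a-2-3p: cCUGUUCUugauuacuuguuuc
miR-26b-3p: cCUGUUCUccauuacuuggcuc
Counted from the 5′ end, the bases of the 5p arms that differ, in DNA letters from miR-26a to miR-26b, are C11T and C21T. Mir26a-1 and Mir26a-2 share 25 nt from the start of the 5p arm, so a 5p read of miR-26a cannot be given to 1 of these loci. Their 3p arms differ at 6 positions and can be. The 3p seed of miR-26a-2 equals that of miR-26b, and that of miR-26a-1 does not.

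Within the files, the longest sequence was 46 nt in Ago2 CD replicate 1 and wildtype replicate 2, and 50 nt in Ago2 CD replicate 2 and wildtype replicate 1. Each length thus held 1 library of each genotype, and fold changes are also given inside each length. The labels name no batch. As a check on the labels, miR-451a-5p took 0.166% and 0.117% of the reads on miRNA arms in Ago2 CD, against 51.9% and 40.1% in wildtype. Fragments of the Ago2 messenger RNA, 397 and 267 reads in Ago2 CD and 122 and 147 in wildtype, do not check the genotype, since a mutation of the catalytic site need not alter the amount of transcript. The markers of liver and blood cells were present in each library: the hepatocyte list (miR-122, miR-192 and miR-194) summed to 70449 and 33932 counts per 1000000 (CPM) in Ago2 CD and to 25214 and 55938 in wildtype. The erythroid list (miR-451a, miR-144 and miR-486) summed to 243747 and 327908 CPM in Ago2 CD and to 1121378 and 580566 CPM in wildtype, above 1000000 because CPM here are scaled by TMM factors. Within it, miR-451a-5p stood at 1203 and 965.4 CPM in Ago2 CD and at 841600 and 415600 CPM in wildtype. For miR-486-5p the values were 543.6 and 642.4 CPM, against 2178 and 1666 CPM. The genotypes overlapped for miR-144-3p, at 242000 and 326300 CPM in Ago2 CD and 277600 and 163300 CPM in wildtype. The erythroid sum is thus not read as an amount of red cell precursors. The myeloid and lymphoid list (miR-142, miR-223 and miR-150) summed to 52075 and 38161 CPM in Ago2 CD and to 51691 and 56721 CPM in wildtype. The muscle list (miR-1a, miR-133a and miR-206) stood at 13.25 and 34.7 CPM in Ago2 CD and at 706.8 and 31.2 CPM in wildtype. Wildtype replicate 1 thus stood apart there. Fold changes without it are given beside the results, and they set a 46 nt wildtype library against Ago2 CD libraries of both lengths. The neural list (miR-9 and miR-124) stood at 271.9 and 14.4 CPM in Ago2 CD and at 10.9 and 230.6 CPM in wildtype. In bulk tissue, fewer cells of a type and less RNA per cell cannot be told apart.

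The guide strands, miR-26a-5p and miR-26b-5p, were abundant in both genotypes and passed no test between them. miR-26a-5p had 194132 and 136929 untailed reads of 18 to 27 nt in Ago2 CD, against 83776 and 74431 in wildtype. After scaling by TMM factors, which set the bulk of arms level between libraries, this was 9744 and 14400 CPM in Ago2 CD, a mean of 12072 ± 3292, and 14034 and 8408 CPM in wildtype, a mean of 11221 ± 3978 (SD, n = 2 each). The genotypes overlapped, and the high values were those of the 50 nt libraries. The log2 fold change of Ago2 CD over wildtype was 0.11 (SE 0.41, adjusted p = 0.996, edgeR quasi-likelihood test with Benjamini-Hochberg adjustment over 583 arms), with a 95% interval of -0.99 to 1.21. Within the 46 nt libraries it was 0.21, and within the 50 nt libraries 0.037. Without wildtype replicate 1 it was 0.55, where wildtype was a 46 nt library alone and Ago2 CD held both lengths.

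miR-26b-5p had 159790 and 107423 reads in Ago2 CD, against 65365 and 56436 in wildtype. Its level was 8020 and 11297 CPM in Ago2 CD, a mean of 9658 ± 2317, and 10950 and 6375 CPM in wildtype, a mean of 8662 ± 3235 (SD, n = 2 each). The libraries stood in the same order as for miR-26a-5p, and the genotypes overlapped again. The log2 fold change was 0.16 (SE 0.41, adjusted p = 0.996, edgeR), with a 95% interval of -0.93 to 1.25, and 0.33 and 0.045 within the 46 nt and the 50 nt libraries. Without wildtype replicate 1 it was 0.63, with the same imbalance of lengths. By mean CPM, miR-26a-5p ranked 10 and miR-26b-5p ranked 14 among the 583 arms tested.

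Of the 5 arms of the family, 3 passed the filter on low counts and 0 were called. Over all arms, 2 of 583 were called, or 0.343% (1 higher and 1 lower in Ago2 CD), and 18 had an unadjusted p under 0.05, none of them a mir-26 arm; DESeq2 called 8 arms, none of the family either.

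**Figure D1:**
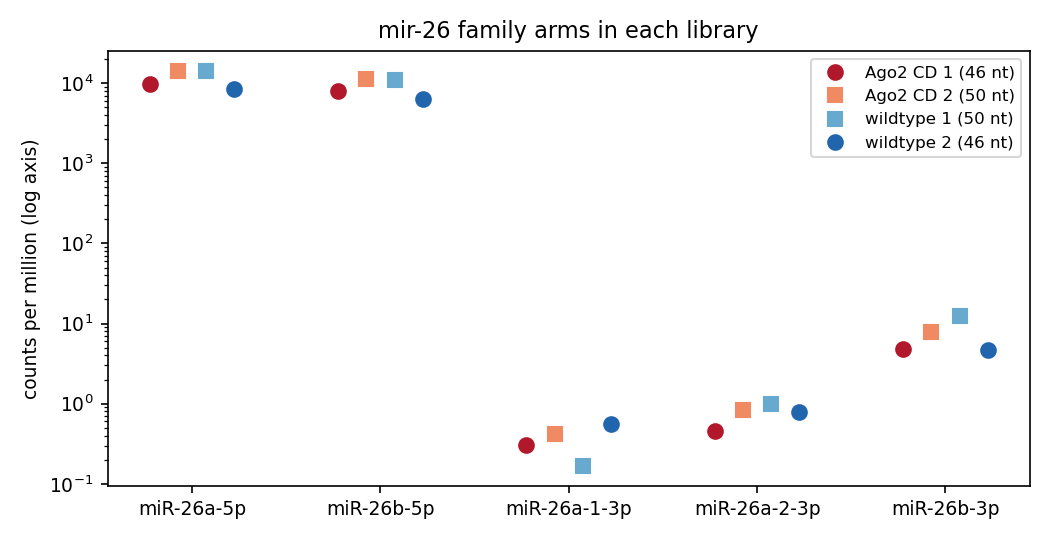
Counts per 1000000 (log axis, TMM scaling) of the 5 mir-26 arms in each library, 1 point per library. Circles are libraries with sequences of up to 46 nt and squares those of up to 50 nt. Both 5p arms lie between 6375 and 14400 CPM, with the squares above the circles, and the 3p arms lie at or below 12.4 CPM.

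The fold change depended on the scale. As a share of the reads on arms, miR-26a-5p was 1.35% and 1.75% in Ago2 CD and 0.865% and 0.811% in wildtype, and miR-26b-5p was 1.11% and 1.37% in Ago2 CD and 0.675% and 0.615% in wildtype. On that scale the genotypes did not overlap for either arm, and the number of other arms for which this held is not given here. With the reads on arms as library size, the log2 fold changes were 0.89 and 0.94, but the median over all arms was then 0.74. The wildtype libraries gave up to 51.9% of these reads to miR-451a. Relative to that median, the arms stood 0.15 and 0.20 higher on the log2 scale, and relative to the median under TMM scaling 0.064 and 0.12 higher.

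**Figure D2:**
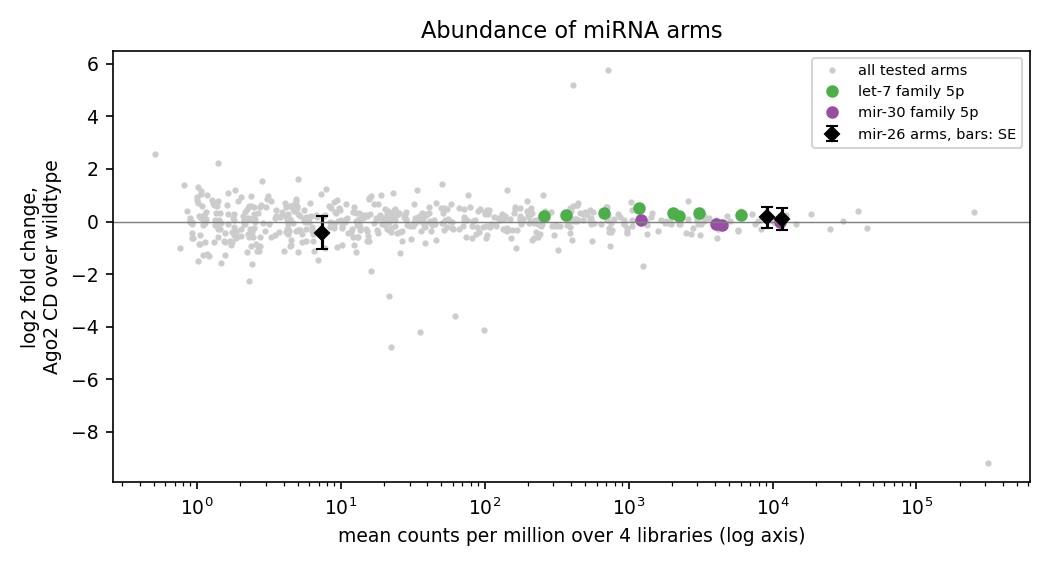
Log2 fold change of Ago2 CD over wildtype (edgeR) against the mean counts per 1000000 over 4 libraries (log axis) for the 583 arms tested. Diamonds are the mir-26 arms, with bars of 1 SE, which reach across 0 for all 3, and coloured points are the 5p arms of the let-7 and mir-30 families.

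The levels of the family did move with the longest sequence of the file. With genotype kept in the model, the 50 nt libraries were higher than the 46 nt libraries by 0.65 on the log2 scale for miR-26a-5p (adjusted p = 0.00958, edgeR), by 0.64 for miR-26b-5p (adjusted p = 0.0109) and by 1.04 for miR-26b-3p (adjusted p = 0.0212). This test was added after the values had been seen. Of the 583 arms, 228 passed it, or 39.1%, in either direction. The hepatocyte list ran the other way, with 70449 CPM (Ago2 CD) and 55938 CPM (wildtype) in the 46 nt libraries and 33932 CPM (Ago2 CD) and 25214 CPM (wildtype) in the 50 nt libraries. Its part in the difference was not tested.

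The members kept nearly the same proportion to each other in every library. miR-26b-5p made up 45.1% and 44% of the 5p reads of the family in Ago2 CD, against 43.8% and 43.1% in wildtype. The 95% counting interval (Clopper-Pearson) ran from 43.8% to 44.2% in Ago2 CD replicate 2 and from 43.6% to 44.1% in wildtype replicate 1, so the nearest libraries of the genotypes were not separated by counting error. The mean difference was 1.08 percentage points (exact permutation test over libraries, two-sided p = 0.333, the smallest that 2 against 2 libraries allow). It was 0.486 points without Ago2 CD replicate 1, 1.67 without Ago2 CD replicate 2 and 0.728 without wildtype replicate 2. With tailed reads included, the shares were 44.3% and 42.7% in Ago2 CD and 43.5% and 42.6% in wildtype, and the genotypes overlapped.

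The 5p arms differ by few bases, and reads with the other member's base at position 11 were counted. The 22 nt read of miR-26a with the C11T change is not an untailed read of miR-26b, because of position 21. By the rule for tails it is the 20 nt read of miR-26b with CT added. It had 339 and 661 reads in Ago2 CD, or 0.297% and 0.791% of the exact reads. In wildtype it had 349 and 104, or 0.693% and 0.247%. The 22 nt read of miR-26b with T11C is by that rule the 20 nt read of miR-26a with TT added. It stood at 0.32% and 0.394% in Ago2 CD and at 0.358% and 0.247% in wildtype. Reads of miR-26b-5p that end before base 21 rest on position 11 alone, and these were 12.4% and 9.74% of its reads in Ago2 CD and 8.96% and 13.5% in wildtype. For both 22 nt reads, an exchanged base and a tail cannot be told apart, so their shares are no rate of exchange. These reads stayed at or below 0.791% of the exact reads in each library.

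The passenger strands were close to absent. miR-26b-3p had 96 and 75 reads in Ago2 CD, against 74 and 41 in wildtype, or 4.82 and 7.89 CPM in Ago2 CD and 12.4 and 4.63 CPM in wildtype. Its log2 fold change was -0.42 (SE 0.63, adjusted p = 0.996, edgeR; 95% interval -2.1 to 1.26), 0.057 within the 46 nt libraries and -0.65 within the 50 nt libraries. The genotypes overlapped, and wildtype replicate 1 was the highest; without that library the fold change was 0.48.

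The 3p arms of miR-26a, which alone tell its loci apart, were read in every library but stayed under the filter on low counts. miR-26a-1-3p had 6 and 4 reads in Ago2 CD, against 1 and 5 in wildtype. miR-26a-2-3p had 9 and 8 reads in Ago2 CD, against 6 and 7 in wildtype. Mir26a-2 thus gave 9 of 15 and 8 of 12 of the locus-specific 3p reads in Ago2 CD (60% and 66.7%), against 6 of 7 and 7 of 12 in wildtype (85.7% and 58.3%). The exact intervals, 32.3% to 83.7% in Ago2 CD replicate 1 and 42.1% to 99.6% in wildtype replicate 1, were too wide to show a difference at this depth (exact permutation test, two-sided p = 1). The mean difference was -8.69 percentage points, and it was 5.0 without wildtype replicate 1. The labels name no molecular identifiers and reads were counted as deposited, so such intervals cover counting error only.

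Both members sent nearly all of their reads to the 5p arm, and Mir26b less completely than Mir26a in each of the 4 libraries. The 3p arms made up 0.00773% and 0.00876% of the arm reads of mir-26a in Ago2 CD, against 0.00835% and 0.0161% in wildtype. For mir-26b the share was 0.06% and 0.0698% in Ago2 CD, against 0.113% and 0.0726% in wildtype. Within each library the share of mir-26b was higher, by 2.97 ± 0.65 on the log2 scale (SD over 4 libraries, 4 of 4 higher). An exact sign-flip test over libraries gave p = 0.125 (two-sided), the smallest that 4 libraries allow, and the same p, adjusted over the 8 comparisons between the members made in this way, stayed at 0.125. With the reads of the 4 libraries pooled, the minor arm took 0.0094% of the reads of mir-26a and 0.0735% of those of mir-26b. Among 275 hairpins or groups of hairpins with no library under 20 reads, 10 had a lower share than mir-26a and 23 a lower share than mir-26b, and the median was 2.56%. The test of the ratio also required a minor arm of 10 or more reads in the pooled libraries, which left out 40 hairpins; among the other 235, mir-26a was lowest and the median was 4.64%.

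The balance between the arms (3p over 5p) passed no test between genotypes. The log2 difference of Ago2 CD from wildtype was -0.52 (SE 0.57) for mir-26a and -0.49 (SE 0.53) for mir-26b (adjusted p = 0.999 for both, limma over 235 hairpins). Without wildtype replicate 1 the values were -0.98 and -0.17, and without wildtype replicate 2 they were -0.068 and -0.81. Of these 235, 2 were called, or 0.851%, and 8 had an unadjusted p under 0.05.

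The 3 most frequent untailed reads of each 5p arm ended at base 20, 21 or 22, and the longest was the most frequent; they are shown because the tails described further on start from these ends.
miR-26a-5p, 22 nt: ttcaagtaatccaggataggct
miR-26a-5p, 21 nt: ttcaagtaatccaggataggc
miR-26a-5p, 20 nt: ttcaagtaatccaggatagg
miR-26b-5p, 22 nt: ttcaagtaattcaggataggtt
miR-26b-5p, 21 nt: ttcaagtaattcaggataggt
miR-26b-5p, 20 nt: ttcaagtaattcaggatagg
The 22 nt read of miR-26a had 114109 and 83526 reads in Ago2 CD, against 50347 and 42032 in wildtype. The 22 nt read of miR-26b had 107652 and 73287 reads in Ago2 CD, against 43606 and 35669 in wildtype. RefSeq gives miR-26b-5p as 21 nt, and that read had 22211 and 18096 reads in Ago2 CD and 13428 and 9660 in wildtype, fewer than the 22 nt read in each library.

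Reads of 22 nt made up 58.9% and 61% of the untailed reads of miR-26a-5p in Ago2 CD and 60.1% and 56.6% in wildtype. For miR-26b-5p they made up 67.4% and 68.2% in Ago2 CD and 66.7% and 63.3% in wildtype. Reads of 22 nt that end in C in place of the templated T count as tailed and are not in these shares. For miR-26a-5p these left-out reads numbered 110 and 34647 in Ago2 CD and 15326 and 34 in wildtype. Reads of 19 nt or shorter followed the longest sequence of the file: for miR-26a-5p they were 10.5% and 4.61% in Ago2 CD and 4.11% and 10.4% in wildtype, and for miR-26b-5p 10.2% and 3.71% in Ago2 CD and 3.33% and 9.49% in wildtype. The 46 nt libraries were thus the high ones in both genotypes.

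The mean length of the untailed reads of miR-26a-5p, again without those ending in an untemplated C, was 21.27 and 21.42 nt in Ago2 CD and 21.41 and 21.24 nt in wildtype. That of miR-26b-5p was 21.41 and 21.51 nt in Ago2 CD and 21.52 and 21.38 nt in wildtype. Neither differed by genotype beyond the spread between libraries (difference 0.014 nt for each, SE 0.12 and 0.11, adjusted p = 1, limma over 276 arms, of which 1, or 0.362%, was called). With genotype in the model, the 50 nt libraries exceeded the 46 nt libraries by 0.16 nt (adjusted p = 0.0202, limma) and by 0.12 nt (adjusted p = 0.0482), a test that 68.8% of the 276 arms passed. This comparison of lengths was also added after the values had been seen.

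**Figure D3:**
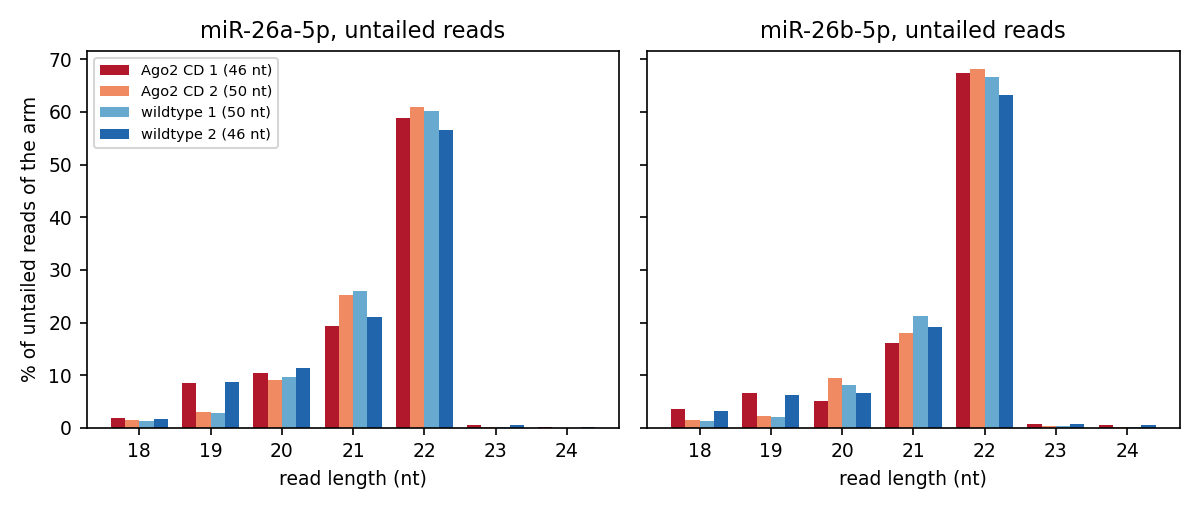
Share of untailed reads (percent) of each length in nt for miR-26a-5p (left) and miR-26b-5p (right), with 1 bar per library. The 22 nt read is the highest bar in each library, and the 19 nt bars are higher in the 46 nt libraries, at 8.59% and 8.69% for miR-26a-5p, than in the 50 nt libraries, at 3.06% and 2.88%.

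The 5′ end, which sets the seed, was the annotated one in most reads. Reads that began elsewhere were 7.03% and 5.34% of miR-26a-5p in Ago2 CD and 4.16% and 6.61% in wildtype. For miR-26b-5p they were 5.96% and 4.88% in Ago2 CD and 3.4% and 5.66% in wildtype. The most frequent shift in the 46 nt libraries was a loss of 1 base, at 3.7% (Ago2 CD) and 3.64% (wildtype) of miR-26a-5p, against 1.88% (Ago2 CD) and 1.6% (wildtype) in the 50 nt libraries. The log2 ratio of shifted to unshifted reads was higher in Ago2 CD by 0.24 (SE 0.39) and by 0.31 (SE 0.42), and neither passed the test (adjusted p = 0.999, limma). Over the 276 arms 0 were called, or 0%, with 2 at an unadjusted p under 0.05.

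In principle, a read that begins before the 5p arm could tell the miR-26a loci apart, since the hairpins share 0 nt there. The untailed 5p reads that matched only 1 of these hairpins numbered 1311 and 45 in Ago2 CD and 22 and 506 in wildtype. The base before the arm is G in Mir26a-1 and A in Mir26a-2, but in the 46 nt libraries all 4 bases occurred there. In Ago2 CD replicate 1, the reads with A, C, G and T before the arm numbered 605, 884, 621 and 628. In wildtype replicate 2 they numbered 216, 371, 248 and 249. In the 50 nt libraries, C stood before the arm in 4134 of 4216 such reads (Ago2 CD replicate 2) and in 1908 of 1944 (wildtype replicate 1), and neither locus has a C there. For miR-26b-5p, whose template has a G, the reads with A, C, G and T numbered 518, 751, 422 and 528 in Ago2 CD replicate 1 and 12, 2267, 3 and 16 in Ago2 CD replicate 2, against 4, 1113, 1 and 14 in wildtype replicate 1 and 172, 281, 133 and 163 in wildtype replicate 2. Reads with the templated base were no more frequent than those with another, so they were not used to share miR-26a-5p between its loci. This count was chosen after the values had been seen.

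In tailed reads the first added base is not the one that the hairpin holds there, while bases after it can match the hairpin. The tailed share of miR-26a-5p was 17.3% and 32% in Ago2 CD and 27.7% and 17.4% in wildtype. That of miR-26b-5p was 14.4% and 28.3% in Ago2 CD and 26.8% and 15.6% in wildtype. The 50 nt libraries were high in both genotypes. Tails without a C ran in the other order as a share of all reads of the arm, C-tailed reads included. They were on 16.5% and 8.84% of miR-26a-5p in Ago2 CD and on 9.89% and 16.7% in wildtype. For miR-26b-5p they were on 13.9% and 8.44% in Ago2 CD and on 9.67% and 15.2% in wildtype. The C-tailed reads in the total lower these shares most in the 50 nt libraries. With genotype in the model, the log2 ratio of these C-free tailed reads to untailed reads was lower in the 50 nt than in the 46 nt libraries, at -0.59 for miR-26a-5p (adjusted p = 0.0175, limma) and -0.46 for miR-26b-5p (adjusted p = 0.0309), a test that 50.4% of 276 arms passed. For 1 added A the same difference was -0.72 for miR-26a-5p (adjusted p = 0.0365, limma) and -0.49 for miR-26b-5p (adjusted p = 0.0887), where 42.8% of the arms passed, and for 1 added T no arm passed (0%, with 94 at an unadjusted p under 0.05). These tests of 50 nt against 46 nt libraries were added after the values had been seen.

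With the longest sequence of the file as a term in the model, no tail of the family passed a test between genotypes. The log2 ratio of tailed to untailed reads differed between Ago2 CD and wildtype by 0.14 (SE 0.19, adjusted p = 0.986, limma) for miR-26a-5p and by -0.017 (SE 0.19, adjusted p = 0.993) for miR-26b-5p, where 3 of 276 arms, or 1.09%, were called. For a single added uridine, read as T, the differences were -0.036 (SE 0.15, adjusted p = 0.99) and -0.19 (SE 0.17, adjusted p = 0.762). For a single added adenine they were 0.059 (SE 0.16, adjusted p = 0.864) and -0.14 (SE 0.17, adjusted p = 0.815). Neither of these tests called an arm among 276 (0% each), with 22 arms for uridine and 24 for adenine at an unadjusted p under 0.05.

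The members carried added bases at different shares in each of the 4 libraries, though 4 libraries cannot bring an exact test under the threshold. The reads below show a full 22 nt arm with its added bases in capitals. The last of each group was chosen after its values had been seen.
miR-26a-5p with A: ttcaagtaatccaggataggctA
miR-26a-5p with T: ttcaagtaatccaggataggctT
miR-26a-5p with A then T: ttcaagtaatccaggataggctAT
miR-26b-5p with A: ttcaagtaattcaggataggttA
miR-26b-5p with T: ttcaagtaattcaggataggttT
miR-26b-5p with A then T: ttcaagtaattcaggataggttAT
After base 22 the next templated base is G in all 3 hairpins, so neither A nor T is templated there. Of the reads templated to base 22, those with 1 added A were 4.39% and 2.81% of miR-26a-5p in Ago2 CD and 2.74% and 4.25% in wildtype, and 8.23% and 5.42% of miR-26b-5p in Ago2 CD and 6.62% and 8.5% in wildtype. The share was higher for miR-26b-5p in 4 of 4 libraries, by 1.03 ± 0.16 on the log2 scale (SD over libraries).

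A single added T ran the other way, with a smaller difference. It was on 8.48% and 6.59% of miR-26a-5p in Ago2 CD and on 6.79% and 9% in wildtype. For miR-26b-5p it was on 6.45% and 5.45% in Ago2 CD and on 5.77% and 8.41% in wildtype. The log2 ratio of miR-26b-5p to miR-26a-5p was -0.25 ± 0.12, below 0 in each of 4 libraries.

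Tails of 2 bases were more frequent on miR-26a-5p in each library. The templated base after base 23 is T in both members. A read with A then T or with 2 added T thus equals a longer templated read with base 23 changed, and matching cannot tell these apart. A then T was on 3.56% and 2.13% of its reads in Ago2 CD and on 2.6% and 3.74% in wildtype, against 0.528% and 0.288% of miR-26b-5p in Ago2 CD and 0.381% and 0.562% in wildtype. The log2 ratio of miR-26b-5p to miR-26a-5p was -2.79 ± 0.07, the least variable of the 8 comparisons between members save that of the read numbers themselves (-0.35 ± 0.05). For 2 added T it was -2.78 ± 0.31, with 1.33% and 1.09% of miR-26a-5p in Ago2 CD and 1.23% and 1.32% in wildtype. For T then A it was -2.34 ± 0.54 and for 2 added A -0.70 ± 0.33. Each of these had the same sign in 4 of 4 libraries and the exact sign-flip p of 0.125, which is the smallest that 4 libraries allow.

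**Figure D4:**
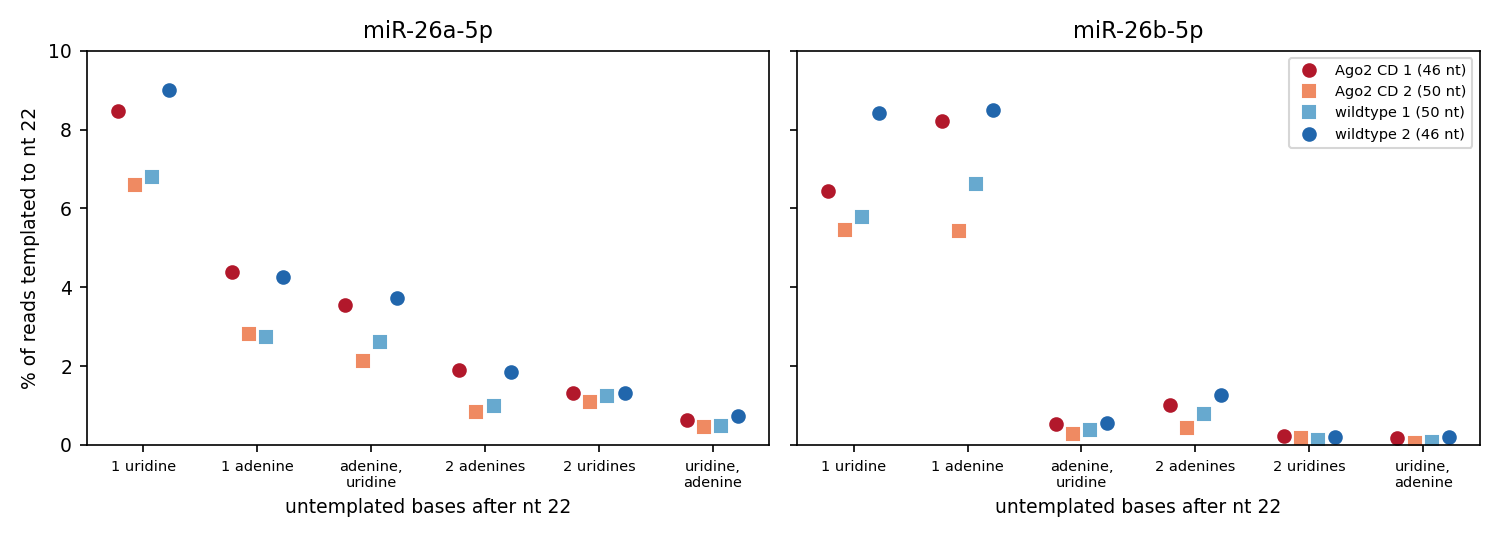
Percent of reads templated to base 22 that carry the named added bases, for miR-26a-5p (left) and miR-26b-5p (right), 1 point per library. Single adenine stands higher for miR-26b-5p, at 5.42% to 8.5%, than for miR-26a-5p, at 2.74% to 4.39%, while adenine followed by uridine reaches 3.74% for miR-26a-5p and 0.562% for miR-26b-5p.

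The tails of the family were then ranked among 276 arms by the mean share over libraries, from the highest. For all tails, miR-26a-5p ranked 70 and miR-26b-5p ranked 96, where the median over arms itself was 12.5% and 23.2% in Ago2 CD and 21.1% and 13.3% in wildtype. For 1 added C, which followed the longest sequence of the file, the ranks were 52 and 40. For 1 added A the ranks were 167 and 85, and for 1 added T they were 107 and 115. The share of all reads of the arm with 1 added T was 5.89% and 3.63% for miR-26a-5p in Ago2 CD and 3.91% and 6.08% in wildtype, against a median over arms of 3.42% and 2.82% in Ago2 CD and 3.24% and 3.48% in wildtype.

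Reads that end in a C where the template has a T separated the 50 nt libraries from the 46 nt libraries in both genotypes.
miR-26a-5p with C at base 22: ttcaagtaatccaggataggcC
miR-26b-5p with C at base 22: ttcaagtaattcaggataggtC
The first of these had 110 and 34647 reads in Ago2 CD, against 15326 and 34 in wildtype. The second had 55 and 17184 reads in Ago2 CD, against 8626 and 13 in wildtype. For miR-26a-5p, the reads ending in C were set against their sum with the templated 22 nt read. Their share was 0.0963% and 29.3% in Ago2 CD and 23.3% and 0.0808% in wildtype. The 50 nt libraries were high and the 46 nt libraries near 0 in both genotypes.

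The template at the last base went with the share of reads that ended in C. As before, this share was taken over these reads and the templated read of the same length. At base 21 of miR-26b-5p, where the template has a T, it was 0.462% and 30.9% in Ago2 CD and 25.3% and 0.443% in wildtype. At base 20, where it has a G, it was 0.0339% and 1.75% for miR-26a-5p in Ago2 CD and 1.25% and 0.0403% in wildtype. Over the 140 arms whose main read ends in T, the median was 0.0898% and 24.5% in Ago2 CD and 18.9% and 0.0657% in wildtype. Over the 40 arms that end in G it was 0.0285% and 2.68% in Ago2 CD and 2.34% and 0.0167% in wildtype. An added C and a changed last base cannot be told apart by matching. This measure was chosen after the values had been seen. With genotype in the model, a single added C differed between 50 nt and 46 nt libraries in each of the 276 arms, or 100% (limma), so the family is no exception. That test, too, was added after the values had been seen.

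**Figure D5:**
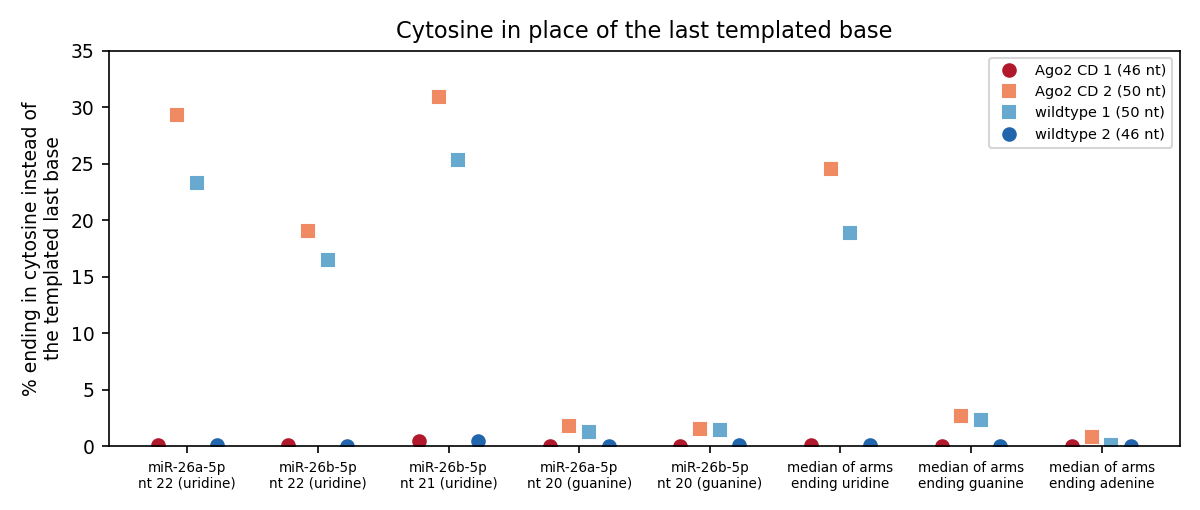
Percent of reads that end in cytosine instead of the last templated base, 1 point per library, for positions of the mir-26 5p arms and as the median of all arms that end in uridine, guanine or adenine. The percent is taken over these reads and the templated read of the same length. The squares (50 nt libraries of both genotypes) reach 30.9% where the template has uridine and stay at or below 2.68% where it has guanine, and the circles (46 nt libraries) stay below 0.5%.

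By level over the 4 libraries, the arms most like the family were its own members. Among 202 other arms of at least 100 CPM, miR-26b-5p was nearest to miR-26a-5p, at a Euclidean distance of 0.085 between log2 CPM values centred over 4 libraries. The next were the miR-154 3p arm (distance 0.103 from miR-26a-5p and 0.157 from miR-26b-5p) and the let-7i 5p arm (0.168 and 0.182). miR-154-3p stood at 7690 and 12190 CPM in Ago2 CD and at 12110 and 6788 CPM in wildtype, so it followed the longest sequence of the file as well.

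Other families and miRNAs related by role or by position had 0 called arms each, beside the 0.343% over all arms. The let-7 family with miR-98, 8 arms, which is processed by Drosha and Dicer and controlled by Lin28, had a median log2 fold change of 0.29, against 0.041 over all arms. It was 0.10 without Ago2 CD replicate 1, 0.49 without Ago2 CD replicate 2, 0.07 without wildtype replicate 1 and 0.72 without wildtype replicate 2. Its most abundant arm, let-7a with let-7c, stood at 7625 and 5429 CPM in Ago2 CD and at 4403 and 6663 CPM in wildtype. The mir-30 family, 4 arms, had a median of -0.05, which was -0.26 without Ago2 CD replicate 1, 0.20 without Ago2 CD replicate 2, -0.14 without wildtype replicate 1 and 0.08 without wildtype replicate 2. Of the miRNAs reported to act on Ezh2 besides miR-26, 5 arms were tested, with a median of 0.09. It was -1.40 without Ago2 CD replicate 1, 0.72 without Ago2 CD replicate 2, -0.27 without wildtype replicate 1 and 1.23 without wildtype replicate 2, so its sign rested on single libraries. The most abundant, miR-101b-3p, stood at 2778 and 468.4 CPM in Ago2 CD and at 500.0 and 2065 CPM in wildtype, high where miR-26 was low. Of the miRNAs in introns of protein-coding genes, 13 arms had a median of -0.11 (-0.24 without Ago2 CD replicate 2 and -0.20 without wildtype replicate 2). The most abundant was miR-16-5p, an arm shared by Mir16-1 and Mir16-2, of which only Mir16-2 was on the list. It stood at 23200 and 22390 CPM in Ago2 CD and at 28210 and 27290 CPM in wildtype (log2 fold change -0.28, SE 0.29, adjusted p = 0.996, edgeR).

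Fragments of the host messenger RNAs were few. Sense reads of at least 20 nt on transcripts of Ctdspl numbered 16 and 7 in Ago2 CD, against 6 and 6 in wildtype. On Ctdsp2 they numbered 36 and 20 in Ago2 CD, against 8 and 16 in wildtype, and on Ctdsp1 40 and 20 in Ago2 CD, against 10 and 15 in wildtype. Per 1000000 reads this was 0.731 and 0.459 for Ctdspl in Ago2 CD and 0.379 and 0.457 in wildtype. For Ctdsp2 the values were 1.65 and 1.31 in Ago2 CD and 0.505 and 1.22 in wildtype, and for Ctdsp1 1.83 and 1.31 in Ago2 CD and 0.631 and 1.14 in wildtype. The Ago2 transcript, with 18.1 and 17.5 reads per 1000000 in Ago2 CD and 7.7 and 11.2 in wildtype, was also higher in both Ago2 CD libraries on this scale, on which the median arm was higher in Ago2 CD as well (0.57 on the log2 scale when libraries were scaled by their reads of 18 nt or longer). With the TMM-scaled library sizes of the arms, the genotypes overlapped for Ago2, at 19.9 and 28.1 CPM in Ago2 CD and 20.4 and 16.6 CPM in wildtype, and for Ctdspl, at 0.803 and 0.736 CPM in Ago2 CD and 1.01 and 0.678 CPM in wildtype. On that scale Ctdsp2 stood at 1.81 and 2.1 CPM in Ago2 CD and at 1.34 and 1.81 CPM in wildtype, and Ctdsp1 at 2.01 and 2.1 CPM in Ago2 CD and at 1.68 and 1.69 CPM in wildtype. No test was made on so few reads, and such fragments are no measure of host expression.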

How the data were processed

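Each deposited file lists distinct reads with their counts, per the file contents; the submitters' processing notes name cutadapt without a version. Other upstream settings and the build are not given in the sources used here. From these deposited counts, reads were matched without mismatch to GENCODE vM21 hairpins, and unmatched reads again after removal of 1 to 3 bases from the 3′ end. An arm is a side of the hairpin's midpoint (18 to 27 nt). Tests used edgeR 4.0.16 (TMM, filterByExpr) for arm counts and limma 3.58.1 (log2 values, pseudocount 0.5) for arm ratios (minimum 20 reads per library, and 10 on the minor arm over all libraries) and for tails, lengths and 5′ ends (minimum 200), in R 4.3.3, with a threshold of 0.05. DESeq2 1.42.0 was an alternative. The fits were tested on simulated data, which held no effect of the longest sequence of the file. Named arms are all members and the most abundant arm of each list. Members and lists were chosen with earlier results of these data known. Replicate numbers do not pair the samples. Reads on arms numbered 14423076 and 7814163 in Ago2 CD and 9684903 and 9178716 in wildtype. The main tail fits between genotypes carry the longest sequence of the file as a term, and those with a library left out do not. P-values measure the spread between libraries; whether each library is 1 animal is not stated.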

Additional observations from a re-analysis of the deposited data

How the results depend on the processing

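None of the 7 tests called a mir-26 arm or hairpin under any alternative run. Over all arms, 2 were called, against 0 without miR-451a and miR-486 (15 at an unadjusted p under 0.05, edgeR), 8 with DESeq2, 12 without the filter on low counts, 1 with reads of 20 to 24 nt, 1 with RefSeq arm positions, 26 with the longest sequence of the file as a term, and 0 to 4 when a library was left out. The cause was not tested. miR-26b-3p turned to 0.42 with the reads on arms as library size and to 0.27 with all reads of at least 18 nt, and the tailed ratio of miR-26a-5p to -0.044 without C.

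Leaving out each library gave log2 fold changes of -0.20 to 0.55 (miR-26a-5p), -0.17 to 0.63 (miR-26b-5p) and -0.96 to 0.48 (miR-26b-3p). Without Ago2 CD replicate 2 or wildtype replicate 2, both 5p arms were lower in Ago2 CD, at -0.18 and -0.20 for miR-26a-5p and at -0.09 and -0.17 for miR-26b-5p. For miR-26a-5p and miR-26b-5p, the range was -0.45 to 0.73 and -0.63 to 0.60 for the tailed ratio, -0.26 to 0.19 and -0.46 to 0.087 for T, -0.30 to 0.42 and -0.45 to 0.17 for A, -0.07 to 0.099 nt and -0.057 to 0.086 nt for mean length, and -0.08 to 0.56 and -0.074 to 0.70 for 5′ ends. The 3p to 5p ratio ran from -0.98 to -0.068 for mir-26a and from -0.81 to -0.17 for mir-26b. The share of miR-26b-5p differed by 0.486 to 1.67 percentage points. With the reads on arms as library size, the list medians were 0.99 (let-7), 0.67 (mir-30), 0.75 (Ezh2) and 0.64 (intronic), beside 0.74 over all arms.

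The replicate numbers did not pair the samples: deviations of same-numbered libraries from their group means had r = -0.765. With the replicate number as a block, the fold changes were 0.12 (miR-26a-5p), 0.19 (miR-26b-5p) and -0.31 (miR-26b-3p), with 3 arms called over all. The crossed pairing is the term for the longest sequence, given above with 26 calls. Where 1 library was left in a genotype, it was assumed to vary like the other group. Depth limits the 3p arms of miR-26a, with 1 to 9 reads a library.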
